A study of Mus musculus with 8 samples.

Results

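Keratin-associated protein (Krtap) genes were described in the epidermis of mouse pups with and without a deletion in Esrp1. The genes were taken by symbol: every gene of the expression table whose symbol begins with Krtap and that was listed above 0 in at least 1 library. The table of 21690 genes held 57 such symbols, of which 56 met the rule; Krtap13 was listed at 0 in every library. RNA from the back-skin epidermis at postnatal day 5 was sequenced in 8 libraries, 4 control and 4 experimental, which the labels call biological replicates. Control pups had the genotype Esrp1flox/flox; Esrp2-/-, and experimental pups had the genotype K5rTA tetOCre Esrp1flox/flox; Esrp2-/-. Dams of both groups ate high dox chow from embryonic day 17 until postnatal day 5. Esrp1 and Esrp2 encode RNA-binding proteins that regulate splicing in epithelial cells, and the question the labels pose is how the epidermal transcriptome responds to their loss. Both groups were Esrp2-/- by genotype, so no wild-type epidermis stood beside them. The transgenes K5rTA, a keratin 5 transactivator by its name, and tetOCre were present only in the experimental pups, so their effect and that of the Esrp1 deletion cannot be told apart. The labels give no litter, sex or number of pups per library, and p-values measure the spread between these libraries.

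Krtap proteins fill the space between keratin filaments in the cells of the growing hair shaft, where they are cross-linked through the disulfide bonds of their cysteines. They are made late in hair differentiation, after the hair shaft keratins, by cells that leave the hair matrix for the cortex or the cuticle of the shaft, and the transcription factor Hoxc13 regulates many hair shaft genes. The family is divided by composition into ultrahigh sulfur, high sulfur and high glycine-tyrosine proteins, and the genes lie in a few clusters. Epidermis harvested from skin can carry hair follicles with it. In a bulk sample, fewer hair-forming cells and less Krtap RNA per cell cannot be told apart.

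The classes were assigned from the annotated coding sequences (GENCODE M21, GRCm38). A gene was placed in the ultrahigh sulfur class where cysteine made up at least 30% of its codons, in the high glycine-tyrosine class where a remaining gene had at least 35% glycine and tyrosine codons together, and in the high sulfur class otherwise. This gave 21 ultrahigh sulfur, 20 high sulfur and 15 high glycine-tyrosine genes, with 57 to 502 codons and, in all 56, a coding transcript of 1 exon. Just inside the cysteine threshold were Krtap10-4 with 30.3%, Krtap10-10 with 30.4% and Krtap1-3 with 30.6%, and just outside was Krtap2-4 with 29.8%. Krtap17-1 had 34.9% glycine and tyrosine beside 35.8% cysteine. The high sulfur class was also the remainder of the rule: Krtap15 had 4.0% cysteine, and Krtap7-1, usually counted as a high glycine-tyrosine protein, had 29.9% glycine and tyrosine and 9.2% cysteine. For each class, 30 codons of the member of highest mean TPM are shown, taken where the codons in capitals are densest. Capitals mark cysteine codons in Krtap17-1 (ultrahigh sulfur, codons 10 to 39, 15 cysteine codons) and Krtap7-1 (high sulfur by the rule, codons 3 to 32, 4 cysteine codons). They mark glycine and tyrosine codons in Krtap8-1 (high glycine-tyrosine, codons 17 to 46, 18 such codons). In the Krtap7-1 stretch glycine and tyrosine codons, left in lower case, outnumber the cysteine codons, so it does not show a high sulfur composition.
Krtap17-1: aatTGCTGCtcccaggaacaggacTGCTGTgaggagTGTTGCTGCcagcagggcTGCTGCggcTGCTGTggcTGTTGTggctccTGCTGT
Krtap7-1: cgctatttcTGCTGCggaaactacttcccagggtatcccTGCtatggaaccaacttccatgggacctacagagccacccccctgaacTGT
Krtap8-1: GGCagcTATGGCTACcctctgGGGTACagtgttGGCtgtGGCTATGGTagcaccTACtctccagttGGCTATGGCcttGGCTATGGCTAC
On GRCm38, Krtap17-1 lies on the minus strand at chr11:99993234-99993994, Krtap7-1 on the minus strand at chr16:89507703-89508323 and Krtap8-1 on the minus strand at chr16:89487379-89487952. The 56 genes fell on 5 chromosomes, 23 on chromosome 11, 23 on chromosome 16, 5 on chromosome 7, 3 on chromosome 10 and 2 on chromosome 1. All 15 high glycine-tyrosine genes were on chromosome 16. This depends on the order of the rule, which applied the cysteine threshold first. Krtap28-10 (38.7%) and Krtap28-13 (42.0%) of chromosome 1 also had at least 35% glycine and tyrosine codons. So did Krtap5-2 (36.0%) and Krtap5-3 (39.3%) of chromosome 7, and these genes were counted as ultrahigh sulfur.

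The bases before the start sites of the Krtap genes were set beside those of all genes. RefSeq (GRCm38.p6) gave a window of 250 bases before to 50 bases after the start for 50 of the 56. The letters TATAAA, the core of a TATA box, stood on the gene's strand with their first base 40 to 20 bases before the start in 31 of the 50 windows (62.0%), against 1.99% of 32851 windows of all genes. TATAAA on either strand anywhere in the window was found in 82.0% of the Krtap windows and 13.6% of all. Core letters bound by LEF1, a transcription factor of hair differentiation (CTTTG followed by AA, by TT, by AT or by TA, either strand, with matches that share bases with TATAAA counted too), were found in 18 Krtap windows (36.0%) and in 16.9% of all. The near TATAAA was found in 12 of 17 ultrahigh sulfur, 12 of 18 high sulfur and 7 of 15 high glycine-tyrosine windows, and the LEF1 core in 3, 11 and 4 of them. A match of letters is a description and does not show that a protein binds there. Some members have near-identical coding sequences, so their windows may not be independent. A link between these letters and the Krtap levels was not tested. The 250 bases before the start are shown for the gene of highest mean TPM with a window in each class and for Krtap11-1, with the near TATAAA and any LEF1 core in capitals.
Krtap17-1: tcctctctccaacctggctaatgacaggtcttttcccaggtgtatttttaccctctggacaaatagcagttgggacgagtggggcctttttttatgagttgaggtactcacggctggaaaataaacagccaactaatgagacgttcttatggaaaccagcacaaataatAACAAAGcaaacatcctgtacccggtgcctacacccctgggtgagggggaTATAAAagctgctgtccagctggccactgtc
Krtap15: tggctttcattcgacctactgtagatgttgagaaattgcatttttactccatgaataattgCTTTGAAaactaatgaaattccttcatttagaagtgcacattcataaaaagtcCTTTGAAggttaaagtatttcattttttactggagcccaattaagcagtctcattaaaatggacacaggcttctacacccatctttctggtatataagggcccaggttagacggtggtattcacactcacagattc
Krtap8-1: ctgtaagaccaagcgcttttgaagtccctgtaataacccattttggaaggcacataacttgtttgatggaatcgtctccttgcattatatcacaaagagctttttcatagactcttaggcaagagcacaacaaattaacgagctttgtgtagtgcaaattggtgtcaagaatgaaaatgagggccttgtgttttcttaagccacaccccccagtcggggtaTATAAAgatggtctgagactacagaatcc
Krtap11-1: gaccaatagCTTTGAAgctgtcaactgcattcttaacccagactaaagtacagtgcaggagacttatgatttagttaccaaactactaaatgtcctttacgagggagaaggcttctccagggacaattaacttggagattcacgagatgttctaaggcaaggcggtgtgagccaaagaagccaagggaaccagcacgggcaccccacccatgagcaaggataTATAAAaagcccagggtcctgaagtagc
These windows are chr11:99993995-99994244 (minus strand) for Krtap17-1, chr16:88828759-88829008 (plus strand) for Krtap15, chr16:89487953-89488202 (minus strand) for Krtap8-1 and chr16:89571184-89571433 (minus strand) for Krtap11-1. TATAAA began 31 bases before the start in Krtap17-1, 29 in Krtap8-1 and 28 in Krtap11-1, and Krtap15 had no TATAAA at that distance.

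Levels are in TPM, the share of a library's transcripts after division by length, and entries of 1 TPM or less were listed at 0. Between 10401 and 11640 genes per library lay above that floor, and since TPM keeps no depth, the depth of each library was unknown. Esrp1 lay at 131 to 162 TPM in the 4 controls, against 49.8 to 75.6 TPM in the experimental libraries (limma log2 change -1.13 with SE 0.17, adjusted p = 0.0112). Esrp2 RNA was near the floor in both groups, at 3.07, 0, 2.14 and 3.31 TPM in control libraries 1 to 4. In experimental libraries 1 to 4 it was at 4.98, 3.25, 5.28 and 4.22 TPM (limma log2 change 0.73 with SE 0.25, adjusted p = 0.176). Of 7 keratinocyte markers none passed, where 2.46% of all genes did, and 3 had log2 changes below 0, against 74.5% of all genes. The 7 markers summed to 46846 to 62494 TPM over controls and 60027 to 91729 TPM over experimental libraries. Among them Krt1 (6279 to 15218 TPM over controls, against 15355 to 22165 TPM) and Ivl (377 to 463 TPM, against 548 to 924 TPM), genes of differentiating keratinocytes, were higher in experimental libraries with groups that did not overlap, as for 2.7% of all genes tested (limma adjusted p = 0.247 and 0.065). Krt10 (10269 to 20967 TPM over controls, against 20206 to 29564 TPM) and Lor (18672 to 31438 TPM, against 18412 to 36596 TPM), also genes of differentiating keratinocytes, overlapped. The 4 endothelial markers and the fibroblast markers Lum and Pdgfra were at 0 throughout, the fibroblast list summed to at most 29.6 TPM in controls and 3.29 TPM in the other group, and the dermal papilla markers Corin, Alx4, Rspo3 and Sox2 were at 0. The dermal papilla marker Wif1 was at 2.33 TPM in control library 1 and at 0 elsewhere. Lef1, also on that list, was at 11.8 TPM in control library 1 and at 1.63 to 3.09 TPM in the other libraries. Mitochondrially encoded genes took 15.3% and 14.6% of the full TPM total in experimental libraries 2 and 4 and 8.91% to 10.5% in the other 6. Libraries are numbered within each group in the order of the table.

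Krtap transcripts were abundant and spread more widely within each group than between the groups. Their summed TPM was 4488, 18324, 94769 and 45659 in control libraries 1 to 4 and 17338, 1878, 5284 and 24567 in experimental libraries 1 to 4. The total was thus highest in control libraries 3 and 4, but experimental libraries 1, 3 and 4 all stood above control library 1, and experimental library 4 above control library 2. As a share of the full TPM total of a library, the sums were 4.08% ± 3.98 in controls and 1.23% ± 1.06 in experimental libraries (SD, n = 4 per group), a 3.33-fold lower mean with overlapping groups (log2 ratio -1.73). Without control libraries 3 and 4 the log2 ratio turned to 0.10, and without control libraries 1 and 2 it was -2.52. The 5 most abundant Krtap genes took 34.4% to 47.9% of the sum in each library.

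**Figure D1:**
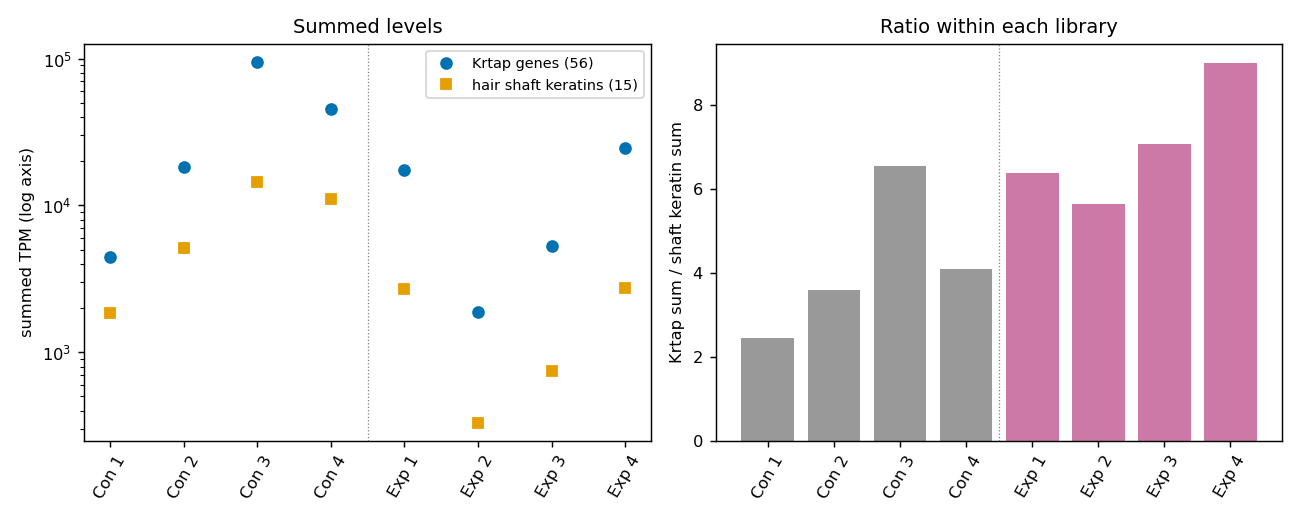
Left, the summed TPM of the 56 Krtap genes and of 15 hair shaft keratins in each library, on a log axis; right, the ratio of these sums in each library as bars. The Krtap sums of the groups overlap, 4488 to 94769 over controls against 1878 to 24567 over experimental libraries, and the ratio is 2.44 to 6.54 over controls against 5.65 to 9.003.

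No single Krtap gene passed the test. All 56 genes had a mean of at least 1 TPM and were among the 10682 genes tested with limma on log2(TPM + 1). None passed at an adjusted p under 0.05, where 2.46% of all genes passed, 1.54% as lower. At an unadjusted p under 0.05 in limma 8 of the 56 were lower, 14.3% of them, and 13.4% of all genes tested were, so this share is near the background. The log2 change was below 0 for 56 of 56 members and for 74.5% of all genes. Its median was -1.38 over the members (range -2.22 to -0.29) and -0.18 over all genes, and the adjusted p ranged from 0.135 to 0.843. For none of the 56 did every experimental library lie below every control, which held for 9.94% of all genes tested, and for none did every experimental library lie above (2.7% of all genes).

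The spread of the members was several times that of other genes. The SE of the log2 change had a median of 1.01 over the Krtap genes and 0.21 over all genes. On the same log2 scale the SD among control libraries had a median of 2.00 over the Krtap genes and 0.32 over all genes, and the SD among experimental libraries had medians of 1.64 and 0.23. For the Krtap genes above the floor in all controls, the highest control level was a median of 23.5 times the lowest, from 6.47 to 80.9 times. Most members had the same lowest and the same highest library, while the order of the libraries between them varied. Of the 47 members above the floor in all 8 libraries, 42 were lowest in experimental library 2 and 5 in control library 1. Control library 3 held the highest level of 40 of the 56 genes and control library 4 that of 15. Control library 1 was below experimental library 1 for 51 of the 56 genes and below experimental library 4 for 55. Control library 2 was below experimental library 1 for 33 and below experimental library 4 for 39.

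**Figure D2:**
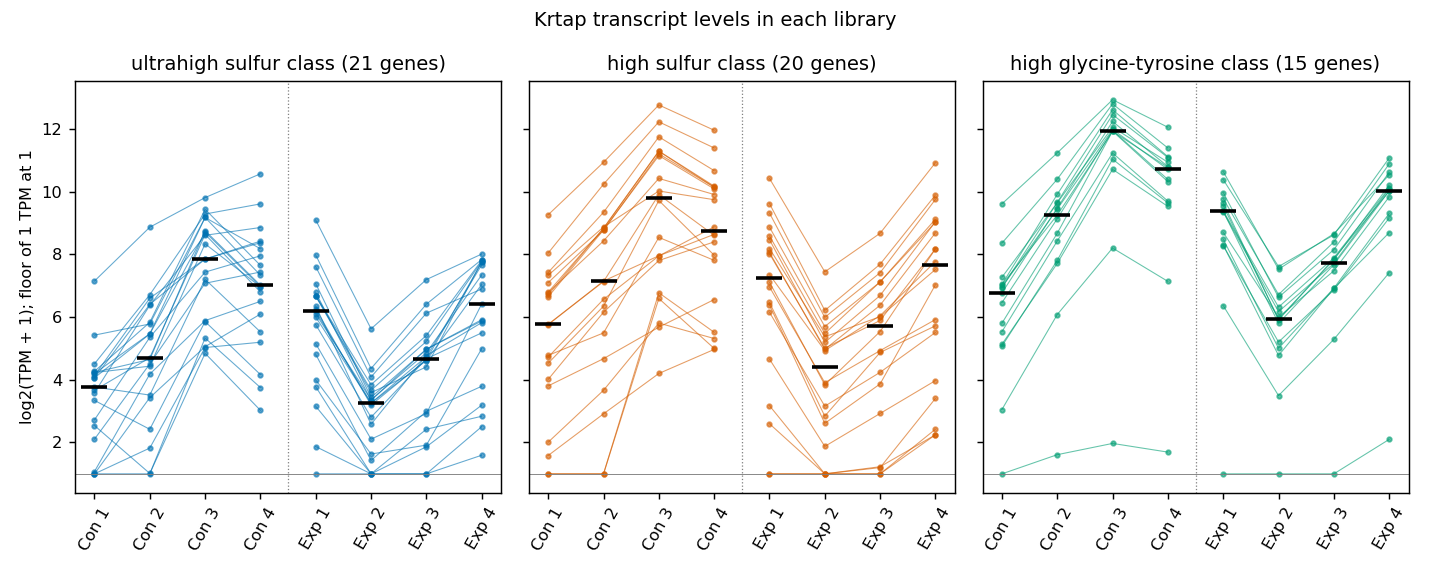
Levels of each Krtap gene as log2(TPM + 1) in each library, with 1 panel per composition class; points of a gene are joined by lines for reading only, black bars are class medians and the grey line at 1 is the floor of 1 TPM. Each class median is highest in control library 3 and lowest in experimental library 2, and control library 1 lies among the experimental libraries.

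The high sulfur class had the lowest median log2 change, and within it the median was lower on chromosome 16 than elsewhere. The median log2 change was -1.89 over the 20 high sulfur genes, -1.31 over the 15 high glycine-tyrosine genes and -0.96 over the 21 ultrahigh sulfur genes. Of the 8 genes at an unadjusted p under 0.05 in limma, 7 were high sulfur, 1 was high glycine-tyrosine (Krtap8-1) and 0 were ultrahigh sulfur. The 8 high sulfur genes of chromosome 16 had a median of -2.06 with 5 of 8 at that unadjusted p, and the 12 elsewhere had a median of -1.69 with 2 of 12. Among all genes tested 13.4% were lower at that unadjusted p. Differences between the classes or chromosomes were not tested, since the genes share the same libraries and are no replicates. Without control libraries 3 and 4 the medians were -0.56, 0.38 and 0.74 for the high sulfur, high glycine-tyrosine and ultrahigh sulfur genes, so that 2 classes turned direction while their order stayed.

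**Figure D3:**
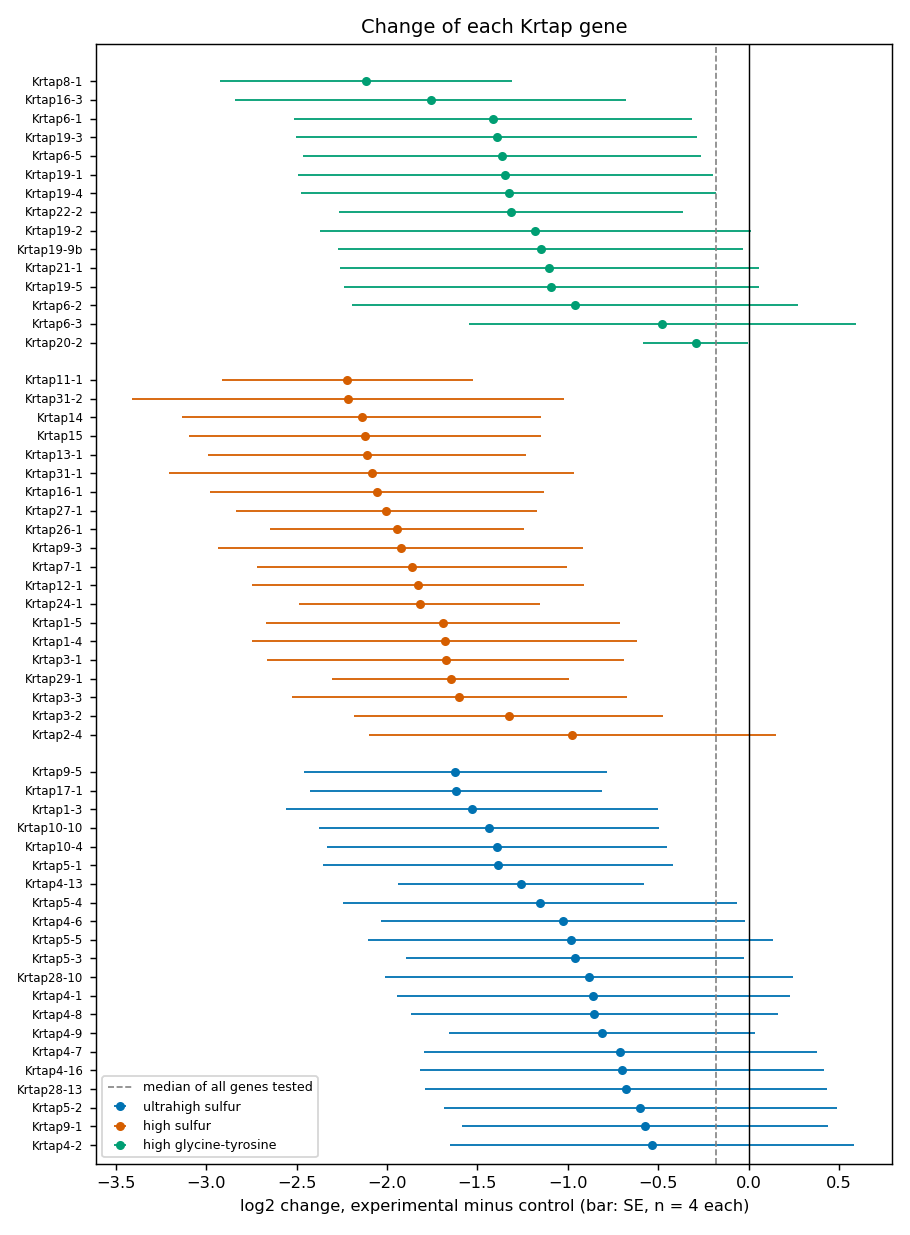
Log2 change (experimental minus control, on log2(TPM + 1)) of each of the 56 Krtap genes, points with bars of 1 SE from 4 against 4 libraries, ordered within the 3 composition classes; the dashed line is the median of all genes tested at -0.18. Every point is below 0, from -2.22 (Krtap11-1) to -0.29 (Krtap20-2), and the bars are long, with a median SE of 1.01.

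Among the high sulfur genes, Krtap11-1 had the lowest p of all members. It lies on the minus strand at chr16:89570176-89571183 (GRCm38) and encodes a hair cortex protein of 183 codons. Krtap11-1 was at 160, 467, 1035 and 854 TPM in control libraries 1 to 4, against 290, 40.4, 63.5 and 182 TPM in experimental libraries 1 to 4. Only control library 1 lay within the experimental range, below experimental libraries 1 and 4. The control mean of 629 ± 392 TPM was 4.37 times the experimental mean of 144 ± 115 TPM (SD, n = 4 per group), and limma gave a log2 change of -2.22 with SE 0.69 and an adjusted p of 0.135. An exact permutation test of the log2(TPM + 1) values, two-sided, gave p = 0.0857, where 4 against 4 libraries cannot go below 0.0286. It was the only Krtap gene in the authors' deposited table of differential expression, which gave it a log2 fold change of -2.08 (SE 0.70) and an adjusted p of 0.0391. All 748 genes of the authors' deposited table had a fold change below 0. Without control library 1 the limma adjusted p of Krtap11-1 was 0.0437.

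Krtap26-1 and Krtap24-1, high sulfur genes of chromosome 16, followed by p. Krtap26-1 was at 53.0, 141, 247 and 396 TPM in control libraries 1 to 4, against 123, 14, 29.4 and 59.5 TPM in experimental libraries 1 to 4 (limma log2 change -1.94 with SE 0.70, adjusted p = 0.188). Krtap24-1 was at 13.0, 24.5, 50.1 and 93.1 TPM in control libraries 1 to 4, against 24.2, 2.67, 6.59 and 14.7 TPM in experimental libraries 1 to 4 (limma log2 change -1.82 with SE 0.67, adjusted p = 0.195). In both genes experimental library 1 was above control library 1, and control library 4 was the highest. Krtap29-1, on chromosome 11, was low throughout, with 2.00, 6.53, 17.4 and 30.3 TPM in the 4 controls, against 5.05, 0, 1.34 and 3.74 TPM in the experimental libraries (limma log2 change -1.65 with SE 0.66, adjusted p = 0.23).

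The most abundant genes of the high sulfur class overlapped between the groups as well. Krtap7-1 was at 612, 1952, 6930 and 3965 TPM in control libraries 1 to 4, against 1367, 173, 406 and 1935 TPM in experimental libraries 1 to 4 (limma log2 change -1.86 with SE 0.86, adjusted p = 0.307). Krtap15 was at 262, 1202, 4776 and 2681 TPM in control libraries 1 to 4, against 784, 73.0, 205 and 947 TPM in experimental libraries 1 to 4 (limma log2 change -2.12 with SE 0.97, adjusted p = 0.305). Their control means were 3.47 and 4.44 times the experimental means, with overlapping groups. The Krtap14 and Krtap15 gene bodies overlap on opposite strands but share 0 exon bases. The chromosome 11 genes Krtap3-1 and Krtap1-5 averaged 1467 ± 1440 and 1044 ± 1054 TPM over controls, and 431 ± 378 and 271 ± 218 TPM over experimental libraries (SD, n = 4 per group; limma adjusted p = 0.416 and 0.411).

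The high glycine-tyrosine genes gave the largest part of the Krtap RNA. They took 47.5%, 55.3%, 61.2% and 51.6% of the summed Krtap TPM in control libraries and 56.5%, 56.9%, 58.3% and 61.8% in experimental ones. Krtap8-1, the most abundant of all members in controls, read 778, 2401, 7780 and 4236 TPM there and 1588, 183, 402 and 1478 TPM in experimental libraries. Control library 1 lay below experimental libraries 1 and 4, and the other controls lay above all 4 experimental libraries. The control mean was 3799 ± 3007 TPM and the experimental mean 913 ± 723 TPM (SD, n = 4 per group; limma log2 change -2.12 with SE 0.81, adjusted p = 0.213).

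The other high glycine-tyrosine genes of chromosome 16 had log2 changes nearer 0 than Krtap8-1. Krtap22-2 was at 326, 1344, 7099 and 2676 TPM in control libraries 1 to 4, against 1331, 194, 391 and 2144 TPM in experimental libraries 1 to 4 (limma log2 change -1.31 with SE 0.95, adjusted p = 0.507). Krtap19-4 was at 130, 961, 6239 and 2211 TPM in control libraries 1 to 4, against 1000.4, 98.0, 282 and 1564 TPM in experimental libraries 1 to 4 (limma log2 change -1.33 with SE 1.15, adjusted p = 0.575). In both genes experimental libraries 1 and 4 stood above control library 1 and at or above the level of control library 2, apart from a lower value of Krtap22-2 in experimental library 1. Krtap19-5, Krtap16-3 and Krtap6-1 had log2 changes of -1.09, -1.76 and -1.41 (limma adjusted p = 0.648, 0.436 and 0.537). The 6 Krtap19 genes had a median log2 change of -1.25 and the 4 Krtap6 genes of -1.16. Krtap20-2 was near the floor, listed at 0 in control library 1 and experimental libraries 1 to 3, at 2.05, 2.92 and 2.23 TPM in the other controls and at 3.28 TPM in experimental library 4.

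The ultrahigh sulfur genes were the least abundant class. They took 8.52%, 6.56%, 6.83% and 11.5% of the summed Krtap TPM in controls and 11.8%, 10.2%, 12.0% and 9.48% in experimental libraries. Krtap17-1, the most abundant of them, was at 141, 464, 894 and 1514 TPM in control libraries 1 to 4, against 544, 48.3, 145 and 256 TPM in experimental libraries 1 to 4 (limma log2 change -1.62 with SE 0.81, adjusted p = 0.342). Experimental library 1 exceeded control libraries 1 and 2 for this gene. Krtap10-10 averaged 167 ± 146 TPM over controls and 51.6 ± 43.2 TPM over experimental libraries (SD, n = 4 per group; limma log2 change -1.44, adjusted p = 0.466). Krtap28-10 and Krtap28-13, the pair on chromosome 1, had log2 changes of -0.88 and -0.68 with SEs of 1.13 and 1.11, and Krtap4-1 one of -0.86 with an SE of 1.08. The 8 Krtap4 genes had a median of -0.83 and the 5 Krtap5 genes of -0.98.

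Several genes lay at the floor in part of the libraries. Krtap31-1, Krtap31-2 and Krtap9-5 of chromosome 11 were listed at 0 in 5 libraries, control libraries 1 and 2 and experimental libraries 1 to 3. In control libraries 3 and 4 and experimental library 4 they read 95.3, 30.9 and 3.74 TPM (Krtap31-1), 108, 44.6 and 4.36 TPM (Krtap31-2), and 39.2, 12.5 and 2.02 TPM (Krtap9-5). Krtap4-13 was listed at 0 in experimental libraries 2 and 3 and stood at 4.81, 1.02, 27.7 and 7.14 TPM in the 4 controls, with 2.65 and 4.67 TPM in experimental libraries 1 and 4. Each of these genes was thus at or near the floor in 1 or more controls. The coding sequences of Krtap31-1 and Krtap31-2 were 98.9% identical and those of Krtap3-2 and Krtap3-3 100% over 300 bases. Those of Krtap6-1 and Krtap6-5 were 97.9% identical, and those of Krtap4-1 and Krtap4-2 95.5%. The pairs Krtap19-1 and Krtap19-3, Krtap16-3 and Krtap19-1, Krtap16-3 and Krtap19-3, and Krtap10-10 and Krtap10-4 were 90.2% to 91.0% identical. How reads were divided within these pairs is uncertain, and so is each one's own level.

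Within a library the order of the Krtap genes was much the same in both groups. Over the 47 members above the floor in every library, Spearman's rho between the levels of 2 libraries was 0.88 to 0.98 within controls, 0.92 to 0.98 within experimental libraries and 0.82 to 0.98 between the groups. These are correlations across genes, which share the libraries and are not independent. When each member was set against the median log2 TPM of the 47 in its own library, the difference between the groups (experimental minus control) had a median of -0.57 over 16 high sulfur genes, 0.01 over 14 high glycine-tyrosine genes and 0.39 over 17 ultrahigh sulfur genes. It was below 0 in 15 of 16, 7 of 14 and 4 of 17 of them. The reference was the median of these same 47 members, which holds the differences as a whole near 0 (median -0.02 over all 47). A value above 0 is thus relative to the other members: all 21 ultrahigh sulfur genes had limma log2 changes below 0. The share of the high sulfur class in the summed Krtap TPM was 44.0%, 38.2%, 32.0% and 36.9% in controls and 31.7%, 32.9%, 29.7% and 28.7% in experimental libraries, where only control library 3 lay within the experimental range.

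A set of 15 Krtap genes was higher in control library 4 than in control library 3. This pattern was noticed after the values had been seen and is given as a description. The 15 were Krtap5-1 to Krtap5-5, Krtap10-4, Krtap10-10, Krtap12-1, Krtap16-1, Krtap17-1, Krtap24-1, Krtap26-1, Krtap28-10, Krtap28-13 and Krtap29-1. Of the 15, 14 (all but Krtap5-3) were also higher in experimental library 1 than in experimental library 4, and of the other 41 genes 39 were not, the exceptions being Krtap11-1 and Krtap8-1. Krtap5-1, for example, was higher by 1.04 in control library 4 than 3 and by 0.94 in experimental library 1 than 4, on the log2(TPM + 1) scale. By class they were 10 of 21 ultrahigh sulfur, 5 of 20 high sulfur and 0 of 15 high glycine-tyrosine genes. In human hair, genes of the KRTAP5, KRTAP10 and KRTAP12 families and KRTAP24-1 are known from the hair cuticle. Among all genes tested 36.6% were higher in control library 4 than 3, and of these 44.9% were higher in experimental library 1 than 4, against 34.2% of the rest. Of 15 hair shaft keratins, 4 were higher in control library 4 than 3 (Krt32, Krt40, Krt82 and Krt87), and all 4 were higher in experimental library 1 than 4, as were 4 of the other 11. Of 10 genes of the inner root sheath and companion layer, 9 were higher in control library 4 than 3, and 8 of these 9 were higher in experimental library 1 than 4, so the pattern was not limited to hair shaft genes. Krt32, Krt82, Krt35 and Krt39 are among the keratins known from the hair cuticle, and this selection is not complete. On the log2(TPM + 1) scale Krt32 and Krt82 were higher in control library 4 than 3 by 1.09 and 1.13. Krt35 and Krt39 were lower in control library 4 than 3 by 0.06 and 0.54.

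**Figure D4:**
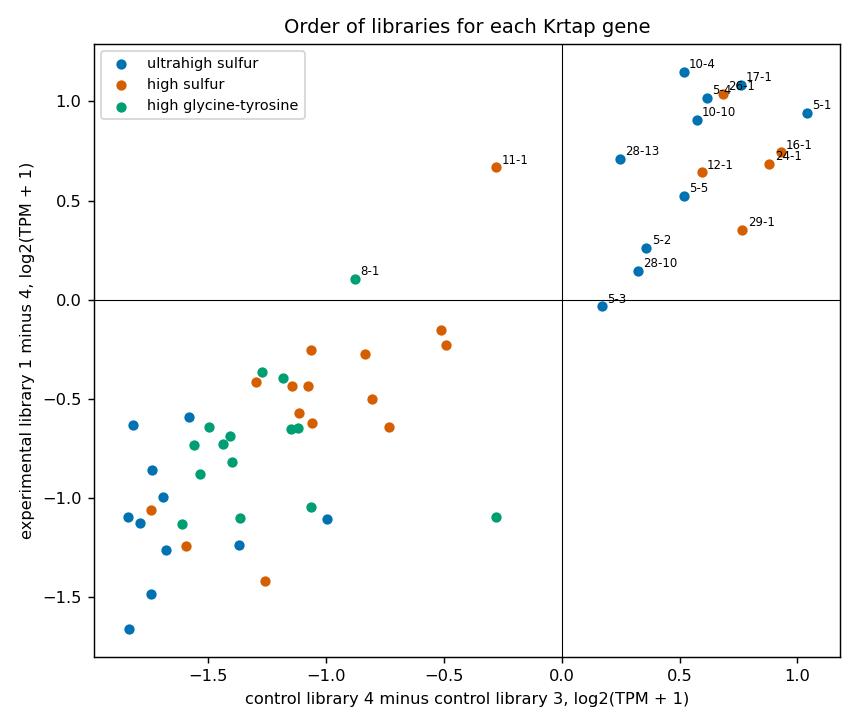
Each point is a Krtap gene; the x axis is its log2(TPM + 1) in control library 4 minus that in control library 3, the y axis that in experimental library 1 minus experimental library 4, with colours for the 3 composition classes and gene numbers given for the genes above 0 on the x axis and for Krtap11-1 and Krtap8-1. Of the 15 genes right of 0, 14 also lie above 0 on the y axis, and 39 of the other 41 lie below it.

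Most genes on 4 lists of hair follicle genes also had log2 changes below 0, and 1 of them passed the test. Among all genes tested 74.5% were below 0, 13.4% were lower at an unadjusted p under 0.05 in limma and 1.54% passed as lower. In a list of 15 hair shaft keratins, the filament partners of the Krtap proteins, 15 of 15 log2 changes were below 0, with a median of -2.30, and none passed (11 at an unadjusted p under 0.05 in limma). Krt87 averaged 476 ± 244 TPM over controls and 101 ± 79.9 TPM over experimental libraries, and Krt32 averaged 66.9 ± 33.1 and 17.7 ± 14.4 TPM (SD, n = 4 per group; limma adjusted p = 0.0731 and 0.0655). Of 8 other hair shaft genes Selenbp1, which encodes a selenium-binding protein, fell from 15.01 ± 4.17 to 6.26 ± 1.71 TPM (SD, n = 4 per group; limma adjusted p = 0.0366), and all 8 log2 changes were below 0, with a median of -1.50. Selenbp1 was highest in control library 1 (20.8 TPM, against 11.5 to 15.2 TPM in the other controls). Among experimental libraries it was lowest in library 1 (4.08 TPM). Every other gene of this list was lowest in control library 1 among controls and in experimental library 2 among experimental libraries. Selenbp1 thus did not follow their order of libraries. Selenbp1 did not pass under 12 of 19 alternative settings, where its limma adjusted p ranged from 0.00329 to 0.159, and leaving out any 1 library other than control library 4 ended the call. Of 10 genes of the inner root sheath and companion layer none passed, 9 were below 0 and the median was -1.65. Krt73 and Krt28, keratins of the inner root sheath, had log2 changes of -1.65 each (limma adjusted p = 0.115 and 0.158). Of 13 regulators of hair differentiation none passed, 12 were below 0 and the median was -0.75. Hoxc13 was at 23.3, 16.9, 27.2 and 55.7 TPM in control libraries 1 to 4. In experimental libraries 1 to 4 it was at 14.5, 3.61, 6.57 and 9.16 TPM (limma log2 change -1.75 with SE 0.41, adjusted p = 0.0584). Every experimental library thus lay below every control for Hoxc13, as for 9.94% of all genes tested. The same held for Msx2, Foxn1, Dlx3, Gata3 and Bmp4. The groups of Msx1, Lef1, Cux1, Foxq1, Vdr, Ovol1 and Wnt10b overlapped. Msx2, another homeobox regulator of hair differentiation, did not pass either, with -1.43 on the log2 scale, SE 0.35 and an adjusted p of 0.0636 in limma.

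The mean ratio of Krtap transcripts to shaft keratin transcripts was higher in experimental libraries, with overlapping groups and no test. The summed TPM of the 15 shaft keratins was 1841, 5110.0, 14494 and 11137 in controls and 2715, 332, 748 and 2729 in experimental libraries. The ratio of the Krtap sum to this sum was 2.44, 3.59, 6.54 and 4.10 in controls and 6.39, 5.65, 7.07 and 9.003 in experimental libraries, with means of 4.17 ± 1.73 and 7.03 ± 1.44 (SD, n = 4 per group). The groups overlapped through control library 3 alone. Krt85, also on the list of 16 shaft keratins, had no entry under that symbol, so these sums and ratios leave it out. Krt5 and Krt14, keratins of basal keratinocytes, ran the other way from the Krtap sum among controls, low in control libraries 3 and 4 and high in 1 and 2. They summed to 6489, 5570.3, 1828 and 703 TPM in control libraries 1 to 4 and to 2034, 1564, 2703 and 1838 TPM in experimental libraries 1 to 4. The sebaceous gland list summed to 185 to 491 TPM over controls, against 91.2 to 153 TPM over experimental libraries, and 1 of its 7 genes (Elovl3) passed as lower. Of all genes tested 1.54% passed as lower. The hair follicle stem cell list summed to 211 to 1362 TPM over controls, against 85.9 to 182 TPM over experimental libraries, with 1 of 4 tested genes (Krt15) passing as lower and Cd34 at 0. Most of this sum was Krt15 itself, at 184 to 1323 TPM over controls and 48.9 to 170 TPM over experimental libraries. Sox9, of the same list, overlapped between the groups (20.5 to 26.7 TPM over controls, against 9.21 to 31.0 TPM). Krt15 did not pass under 12 of 19 alternative settings, and leaving out any 1 library other than control library 4 ended its call; Elovl3 did not pass under 1 of the 19, without experimental libraries 2 and 4 (limma adjusted p = 0.201). The part of these cell types, and of the mitochondrial share, in the Krtap levels was not tested.

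How many Krtap genes passed depended on which controls were kept. Control libraries 1 and 2 had lower summed Krtap TPM (4488 and 18324) than control libraries 3 and 4 (94769 and 45659). Leaving out either pair, or control library 1, thus selects controls by the Krtap levels themselves, and the counts are a description only. Without control library 1, 2 genes passed as lower (Krtap11-1 and Krtap29-1; 1.56% of all genes did), and the groups of 12 members did not overlap (11.5% of all genes). Without control libraries 1 and 2, 10 genes passed (3.24% of all genes), among them Krtap11-1, Krtap29-1, Krtap12-1, Krtap27-1, Krtap5-1 and Krtap5-3, and the groups of 45 members did not overlap (16.6% of all genes). Without control libraries 3 and 4 none passed (22% of all genes did) and 0 had an unadjusted p under 0.05 in limma, 21 of the 52 members then tested were below 0, and the median log2 change was 0.20. With limma's library weights 3 genes passed (Krtap11-1, Krtap26-1 and Krtap8-1; 34.4% of all genes did as lower), and the median was -0.46 with 40 of 56 below 0. Median centring of each library moved the median of all genes from -0.18 to 0.03, and all 56 Krtap log2 changes were still below 0, with 1 at an unadjusted p under 0.05 in limma.

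**Figure D5:**
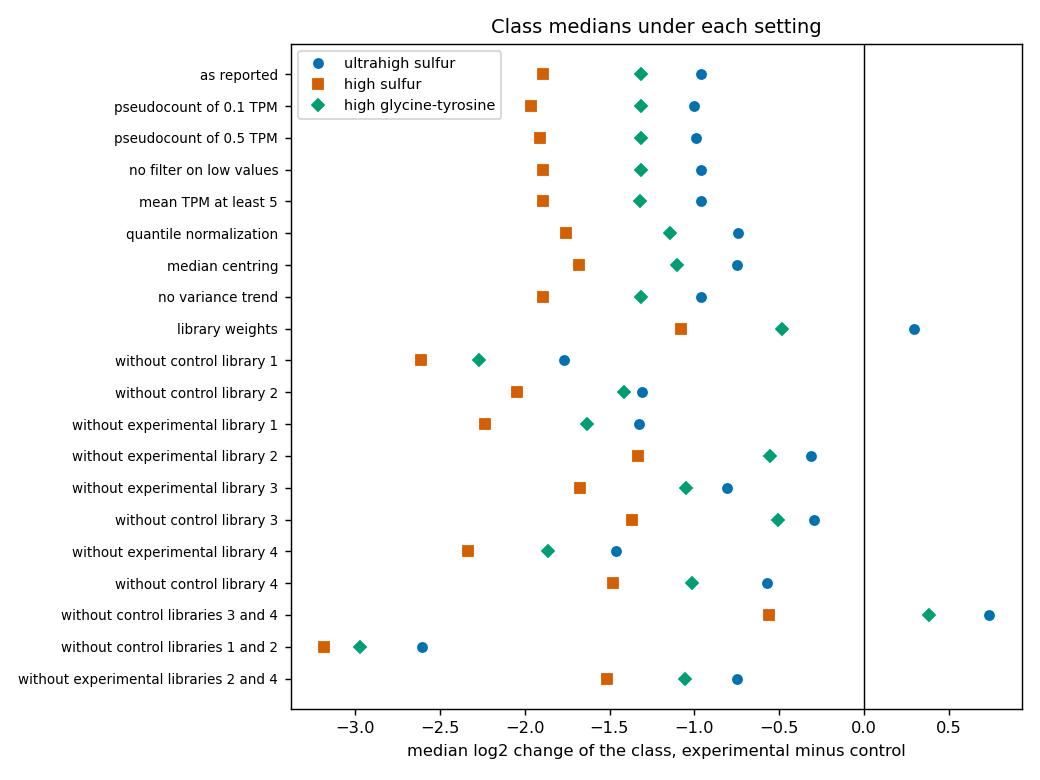
Median log2 change (experimental minus control) of the 3 composition classes as reported and under each alternative setting, 1 line per setting. The high sulfur median stays below 0 in every setting shown, whereas the ultrahigh sulfur median is 0.29 with library weights and 0.74 without control libraries 3 and 4, where the high glycine-tyrosine median is 0.38.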

How the data were processed

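RNA sequencing values of 8 epidermal libraries, 4 control and 4 experimental, were used. The submitters' processing notes name Salmon 0.14.0, STAR, DESeq and SAMtools 1.9, beside the builds mm10 and GRCm38, and do not tie them to a table. The expression table was deposited by the authors as log2 TPM per gene, with no batch correction per its name. Entries of 1 TPM or less are listed at 0: bins of equal width on the log2 scale held 1256 entries just above 0 and 1481 just below 1, with no excess near 0, and 49.6% of entries were 0. Of 21690 identifiers 21662 matched a symbol. The authors' deposited DESeq2 table lists, per the file headers, a mean normalized count (signal), a log2 fold change, score columns for its standard error and the Wald statistic, and both p-value columns, raw and adjusted. The deposited table of splice junctions held 0 Krtap entries and was not used. TPM keeps no depth, so no counting interval was given.

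Column names carry a group and a number that matches no label, so libraries were assigned to groups only, numbered in table order and not paired. The design assumed log2(TPM + 1), so values were turned back to TPM, with entries at the floor taken as 1 TPM, and a pseudocount of 1 TPM was added before taking log2; a fold change on this scale understates that of low genes. Sums took entries at the floor as 0. Every gene with a mean of 1 TPM or more entered limma 3.58.1 (R 4.3.3) with the 2 groups as design, trended eBayes and two-sided tests; p-values were adjusted by Benjamini-Hochberg over all 10682 genes, with a threshold of 0.05. The fit was tested on simulated data. A single gene, Krtap11-1, was compared by exact permutation of its log2(TPM + 1) values. Tables used pandas 2.3.3, numpy 2.4.6, scipy 1.17.1 and Biopython 1.88 in Python 3.11.15, and figures matplotlib 3.10.9. Composition came from codons of annotated coding sequences (GENCODE M21), and pairs of at least 90% identity were listed.

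The Krtap genes, the lists and the alternatives were chosen with earlier results of these data known. By rule, the text names in each class the 4 members of lowest p and the 4 of highest mean TPM, any member past the threshold or with a higher experimental mean, and up to 4 passing genes, or the 2 of lowest p, in each hair list. Other genes named for a count or a pattern were chosen after their values were seen. The alternatives changed the pseudocount (0.1 or 0.5 TPM), the filter (none, or 5 TPM), the scaling (quantiles, or centring on medians), the variance trend (left out), the weights (limma library weights by its gene-by-gene method) and the libraries (single ones or pairs left out). Lists of melanocyte, immune, fat, skeletal muscle and erythroid markers were also summed: none of their tested genes passed.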

Additional observations from a re-analysis of the deposited data

Results flagged for a closer look

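A library that stood apart from the other 3 of its group was looked for in 64 groups of 4 libraries, made of the log2(TPM + 1) values of a named gene, or the summed Krtap or class levels, in controls or in experimental libraries. A library was taken to stand apart where its gap to the nearest other was above Dixon's critical value for the share of the group's range, which chance exceeds in about 1 in 20 groups. This held for 3 groups. Krtap9-5 in experimental library 4 gave a gap of 1.0 of the range, since the other 3 libraries were listed at 0 and set to the floor, and its level was 1.59 on the log2(TPM + 1) scale. Krt73 in experimental library 2 gave a gap of 0.885 of the range, at a level of 6.10, below the other 3. Krt28 in experimental library 2 gave a gap of 0.97 of the range, at a level of 6.71, below the other 3. Experimental library 2 also held the lowest summed Krtap TPM and the highest mitochondrial share of the 8 libraries, and the part of that share in these levels was not tested.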

How the results depend on the processing

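No paired analysis was possible because the columns carry no replicate number that matches the labels. The count of Krtap genes past the threshold was 0 with other pseudocounts, filters, quantile normalization, median centring, no variance trend, without control libraries 3 and 4 and without experimental libraries 2 and 4. It was 3 with library weights and 10 without control libraries 1 and 2, the controls of lowest summed Krtap TPM. It was 0 to 2 when single libraries were left out (2 without control library 1). Library weights ran from 0.154 (control library 4) to 7.43 (control library 2), and the cause of the 3 calls was not tested. The median log2 change was -2.27 to -0.65 when single libraries were left out, -1.20 with quantile normalization, -1.16 with centring and 0.20 without control libraries 3 and 4. The log2 ratio of summed TPM was -2.32 to -0.90 when single libraries were left out and 0.10 without control libraries 3 and 4. The ultrahigh sulfur median was 0.29 with library weights and 0.74 without control libraries 3 and 4, where the high glycine-tyrosine median was 0.38. The count of members whose groups did not overlap was 0 to 12 when single libraries were left out (12 without control library 1, 1 without control library 2, where 11.1% of all genes did not overlap) and 45 without control libraries 1 and 2. With library weights the log2 changes of Krtap4-13, Krtap28-10, Krtap4-1 and Krtap28-13 turned to 0.13, 0.38, 0.29 and 0.37. Without control libraries 3 and 4 those of Krtap10-10, Krtap28-10, Krtap4-1, Krtap28-13, Krtap22-2, Krtap6-1, Krtap19-4 and Krtap19-5 turned to 0.016, 1.03, 0.89, 1.20, 0.044, 0.16, 0.36 and 0.65. Leaving out single libraries moved Krtap4-1 from -1.70 to 0.021 (without control library 3) and Krtap28-13 from -1.77 to 0.020 (without experimental library 2), and Krtap28-13 was at 0.011 without experimental libraries 2 and 4. Of the settings tried on single named genes, 481 kept direction and side of the threshold, 23 passed it where the reported fit did not, 12 lost it (all Selenbp1) and 15 turned direction. Unknown depth, 4 libraries per group and a floor of 1 TPM limit what could be detected, and reads shared between near-identical genes limit single levels.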
